A study of Mus musculus with 18 samples.

Results

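MHC class II genes encode the proteins that show peptides from ingested material to CD4+ T cells, and their transcripts were followed through murine bone marrow (BM) from fetal life to adulthood. The genes were 7 of the 20275 in the count matrix, a list of names with no threshold on their values. H2-Aa and H2-Ab1 encode the α and β chains of the I-A molecule, and H2-Eb1 encodes the β chain of I-E. Cd74 encodes the invariant chain, which holds the peptide groove closed while the molecule is built and carried to the endosome. H2-DMa and H2-DMb1 encode an α and a β chain of H2-DM, which swaps the remnant of the invariant chain for a peptide. Ciita encodes the co-activator that switches the other genes on. In adult mice the transcripts are best known in dendritic cells (DCs), B cells and activated macrophages, and C57BL/6 mice carry an α chain gene of I-E, H2-Ea-ps, that is not expressed.

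The cells came from C57B6/J mice at embryonic day (E) 16.5, E18.5, postnatal day (P) 0 and adulthood, with no treatment or engineered allele. Hematopoietic progenitors (HPs) were sorted as CD45+Lineage-Kit+ cells and stroma as CD45-Ter119- cells, from tibias, femurs, pelvis and spine in adults and from the whole skeleton other than the head in fetuses and newborns. The Lineage gate was set on CD4, CD8, B220, Gr-1 and Ter119. Mature B cells (B220) and some DCs (CD8, B220) bear such markers, so the gate can lower the numbers of these cells. Shares of HP cells below are shares of the sorted Kit+ cells and not of all marrow cells. Each library was a pool of several mice. There were 5 HP libraries (E16.5 library 1 with 560 cells, E16.5 library 2 with 4752, E18.5 with 3477, P0 with 6208 and adult with 5985) and 4 stromal libraries (8226, 6642, 14084 and 6267 cells in the order of age), each measured as raw unique molecular identifier (UMI) counts with a deposited cluster code for each cell.

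The libraries held between 13974733 and 194892476 UMIs, and the median cell held 6747 to 23292 UMIs in HPs and 11810 to 15590 in stroma. Only E16.5 HPs had a second library, so most values below stand for 1 library. Levels are UMIs of a gene per 1000000 UMIs of a cluster (CPM) with an exact Poisson 95% interval in brackets, and such intervals, like the limits given for counts of 0, cover counting error only. Each UMI counts 1 transcript by its 3′ end, so levels were not divided by gene length. Some codes went against their leading genes, and such clusters are called by the code alone. Of the cell barcodes, 53729 were in 1 library, 890 in 2, 160 in 3, 48 in 4 and 4 in 5, which left 2472 of 56201 cells with a shared barcode. In a sum over a cluster, fewer expressing cells and less RNA per cell cannot be told apart, so values per cell are given beside the sums.

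Of the members, 5 lay close together. H2-DMa, H2-DMb1, H2-Ab1, H2-Aa and H2-Eb1 occupied 197.1 kb of chromosome 17 (mm10, chr17:34119541-34316674), in that order, with H2-Aa on the minus strand and the other 4 on the plus strand, while Ciita lay at chr16:10480059-10528418 on the plus strand. Promoters of class II genes are known for an X box, bound by the RFX complex, and a Y box, a reversed CCAAT motif bound by NF-Y, with Ciita docking on the proteins bound there. RefSeq windows (GRCm38.p6) of the 250 bases before each RefSeq start were searched on the strand of the gene for the X core GNAAC followed after 15 to 40 bases by the Y core GATTGG. Both cores were found in the windows of H2-Aa, H2-Eb1 and H2-DMb1, and the stretches are shown because these genes were high together in DC1 and DC3, described next, with the 2 cores in capitals, 5′ to 3′ on the strand of the gene.
H2-Aa: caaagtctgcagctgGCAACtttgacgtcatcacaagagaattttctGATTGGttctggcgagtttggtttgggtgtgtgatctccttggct
H2-Eb1: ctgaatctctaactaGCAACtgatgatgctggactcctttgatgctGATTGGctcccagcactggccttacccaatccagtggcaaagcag
H2-DMb1: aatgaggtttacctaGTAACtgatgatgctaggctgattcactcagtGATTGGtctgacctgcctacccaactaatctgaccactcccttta
The stretches are at chr17:34287828-34287919 (minus strand), chr17:34305761-34305851 (plus) and chr17:34153082-34153173 (plus), upstream of the RefSeq start, with X cores starting 81, 91 and 94 bases and Y cores 49, 60 and 62 bases before it. H2-Aa and H2-Eb1 carry GCAAC and H2-DMb1 carries GTAAC, at a spacing of 27, 26 and 27 bases. The same pair was found in the windows of 3 other class II genes, H2-Oa, H2-Ob and H2-Eb2, with GCAAC in each and 27, 24 and 26 bases between the cores. It was not found in either window of H2-DMa, both of which lie inside the gene as annotated above, so the bases before the annotated gene start were not searched, or in that of H2-DMb2. The H2-DMb1 stretch also lies within the annotated gene, upstream of the RefSeq start. Of 32851 promoter windows, 212 (0.645%) held the pair on the strand of the gene, 410 (1.25%) on either strand, and 4783 (14.6%) held GATTGG alone on either strand. A match is a match of letters and not a measured binding site. H2-Ab1, Cd74 and Ciita had no window here.

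MHC class II transcripts were far more abundant in HPs than in stroma. Summed over the 6 members other than Ciita, the levels in HPs were 1749 CPM in E16.5 library 1, 532 in E16.5 library 2, 734 at E18.5, 334 at P0 and 347 in adults, against 14.2, 33.0, 24.97 and 63.4 CPM in stroma at the same ages. The lowest HP library therefore lay above the highest stromal library, although both E16.5 HP libraries differed from each other by more than any of the other 3 differed among themselves. Cd74 was the most abundant member in every HP library, from 106 CPM at P0 to 769 CPM in E16.5 library 1. Ciita was the least abundant, from 0.831 CPM at P0 to 8.52 CPM in E16.5 library 1. As a ratio of the highest to the lowest level, H2-DMa varied least across HP libraries, between 24.5 and 58.3 CPM.

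In stroma the order of the members was different. Cd74 was at 0.180, 0.133, 0.985 and 3.27 CPM from E16.5 to adulthood and H2-Aa at 0.137, 0.178, 0.441 and 2.47 CPM. H2-DMa reached 6.52, 15.2, 10.0 and 11.4 CPM and H2-DMb1 3.88, 8.74, 6.06 and 35.8 CPM. The most abundant member in stroma was thus a chain of H2-DM, H2-DMa at the 3 younger ages and H2-DMb1 in adults, whereas in HPs it was Cd74.

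**Figure D1:**
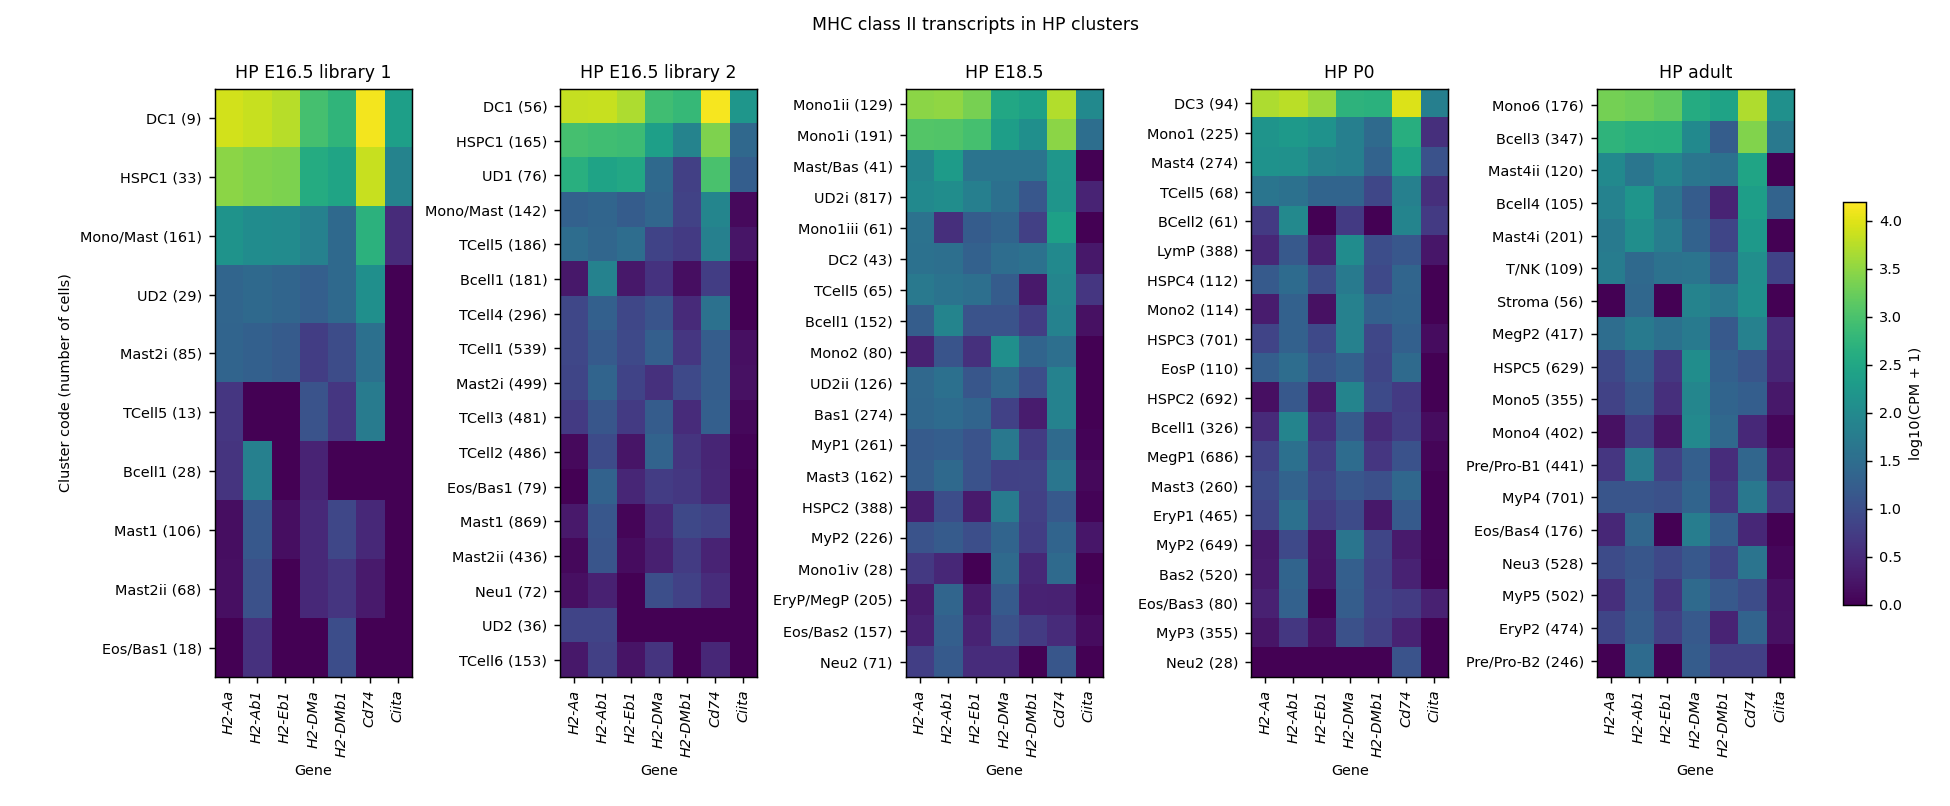
Heat maps of the 7 MHC class II genes (columns) in each HP cluster (rows, number of cells in parentheses) of the 5 HP libraries, coloured by log10(CPM + 1) of summed UMIs and ordered within a library by the level of the 6 members other than Ciita. A few clusters at the top of each library hold high levels of all members, and columns H2-Ab1 and H2-DMa stay coloured further down than H2-Aa, H2-Eb1 or Ciita.

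Within each HP library, a small number of clusters held most of the transcripts. At E16.5 the highest was DC1, led by the cross-presenting DC genes Clec9a, Ifi205 and Irf8, with 35745 [34925-36580] CPM of the 6 members in the 9 cells of library 1 and 34113 [33713-34517] CPM in the 56 cells of library 2. These levels were close in both libraries, although the cluster was 1.61% and 1.18% of the cells. In library 2, DC1 held 54.5% of all UMIs of the 6 members. At E18.5 the highest was Mono1ii with 14181 [14006-14357] CPM and 52.8% of the UMIs in 3.71% of the cells, followed by Mono1i with 6517 [6418-6619] CPM. At P0 it was DC3 with 24815 [24528-25104] CPM and 67.1% of the UMIs in 1.51% of the cells. In adults it was Mono6, led by Ifi205, H2-Aa and Batf3, with 11083 [10871-11299] CPM and 50.4% of the UMIs in 2.94% of the cells, followed by Bcell3 with 4077 [3939-4219] CPM and 16.0% of the UMIs in 5.80% of the cells. The clusters were made from the genes of these cells, members included, so their order is a description and was not tested. Mid-level values in UD2i, UD2ii and Mast/Bas at E18.5, Mast4 at P0 and Mast4i, Mast4ii and MyP4 in adults came from cells of 476 to 798 UMIs at the median, too shallow for most of them to enter the values per cell.

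The I-A chains were balanced in these clusters and Cd74 exceeded them. In DC1, H2-Aa was at 8063 and 6857 CPM, H2-Ab1 at 7057 and 7050 CPM and H2-Eb1 at 5575 and 4804 CPM in libraries 1 and 2. Cd74 was at 13593 and 13941 CPM, H2-DMa at 902 and 823 CPM, H2-DMb1 at 555 and 639 CPM and Ciita at 238 and 162 CPM. All 7 members were present in both libraries, in the same order of level except that H2-Aa and H2-Ab1 changed places. In DC3 at P0, H2-Aa was at 4878, H2-Ab1 at 5775, H2-Eb1 at 3767, Cd74 at 9399, H2-DMa at 524, H2-DMb1 at 472 and Ciita at 65.1 CPM. In adult Mono6 the values were below those of DC3 for H2-Aa (2065 CPM), H2-Ab1 (1906 CPM), H2-Eb1 (1536 CPM), Cd74 (4923 CPM), H2-DMa (378 CPM) and H2-DMb1 (276 CPM), but Ciita was at 126 CPM, above that in DC3.

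The level of a cluster was a mixture of cells with and without the transcripts. Each cell was thinned at random to 1000 UMIs, and a cell with at least 10 UMIs of the 6 members was counted as high, a cut on a range and not a cell type. Of 18716 HP cells deep enough to thin, 474 (2.53%) were high, and 123 HP cells lay near the cut, between 8 and 12 UMIs. The share was 6.25% [4.37-8.62] in E16.5 library 1, 2.39% [1.97-2.86] in library 2, 4.21% [3.46-5.06] at E18.5, 1.53% [1.23-1.87] at P0 and 2.62% [2.19-3.0995] in adults (exact Clopper-Pearson 95% intervals over cells). The intervals of both E16.5 libraries did not overlap, and these libraries of 1 age differed by more percentage points than E18.5, P0 and adult did among themselves. High cells held 93.6%, 85.0%, 85.6%, 65.4% and 48.3% of the UMIs of the 6 members in the same order, so adult HPs had the largest part of their transcripts in cells below the cut, and 71 of the 123 cells near the cut were adult. Of 33515 stromal cells, 1 was high, but the methods of the study say that contaminating blood cells were taken out of the stromal data, so this count and the contrast of HPs with stroma do not cover such cells. Cells with a shared barcode were 21 of the 475 high cells of HPs and stroma.

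**Figure D2:**
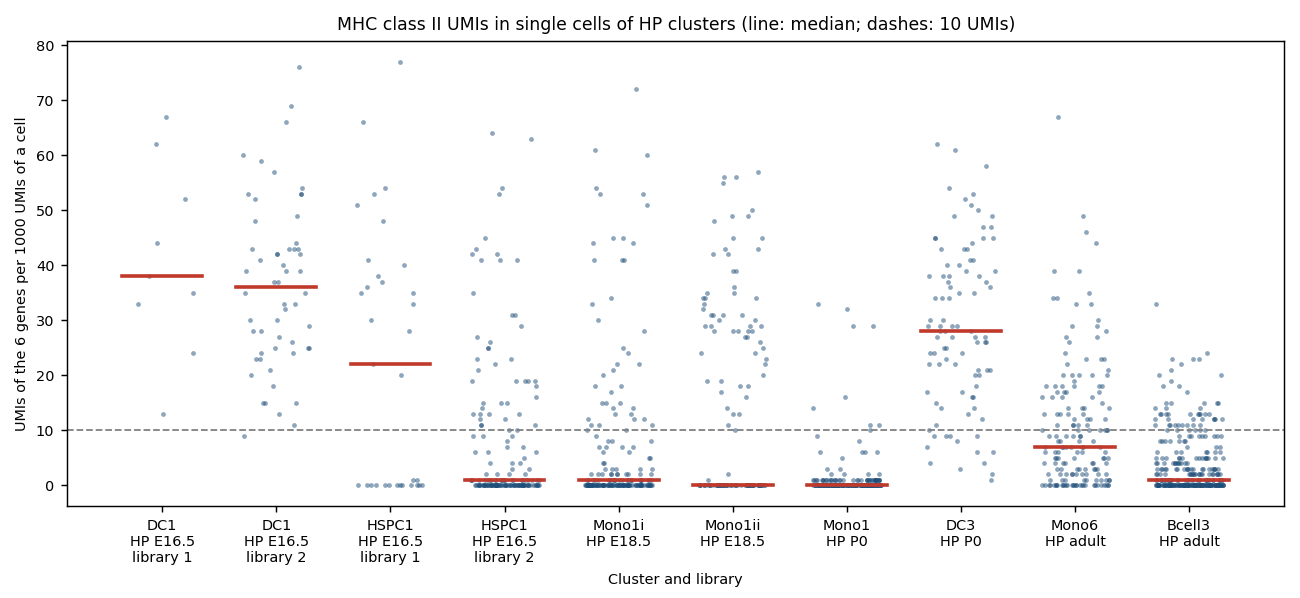
UMIs of the 6 MHC class II genes other than Ciita in single HP cells thinned to 1000 UMIs, by cluster, with the median as a line and the cut at 10 UMIs dashed. DC1 and DC3 cells lie almost all above the cut, with medians of 38, 36 and 28, whereas Mono1ii, Mono1i, HSPC1 of library 2 and Bcell3 hold many cells at or near 0 beside a minority of high cells.

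DC1 and DC3 were nearly uniform, with 9 of 9, 55 of 56 and 81 of 94 cells high. DC2 at E18.5 was not a high cluster, with H2-Aa at 35.4 and Cd74 at 97.5 CPM and 73.5% of the UMIs of the 6 members in 3 of its 43 cells. After thinning, Cd74 was found in 100% of the DC1 cells of library 2 and 96.8% of DC3 cells, H2-Ab1 in 100% and 93.6%, and H2-DMa in 50% and 48.9%. At least 4 of the 6 members were found together in 94.6% and 92.6% of the cells. By comparison, Mast1 cells of library 2 (median depth 14113 UMIs over both E16.5 libraries) had Cd74 in 0.345%, H2-Ab1 in 0.690% and H2-DMa in 0.230%, given here as the level in a cell type not known for these genes.

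Mono1ii at E18.5 held both kinds of cell, 59 of 129 high with a median of 0. Its high cells carried the DC genes Clec9a (190 CPM against 0 in the other 70 cells) and Naaa (1140 against 50.6 CPM), and before thinning Ciita was found in 86.4% of them and in 0% of the others. The other cells carried the macrophage genes C1qa (3173 against 119 CPM in high cells) and Mrc1 (2179 against 30.9 CPM) and the monocyte gene F13a1 (3099 against 79.6 CPM). Per 10000 UMIs, the median high cell had 0 of C1qa, Mrc1 and F13a1 and the median other cell 31.6, 24.5 and 34.4. Median depths were 13129 and 11515 UMIs.

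In Mono1i, 42 of 191 cells were high and carried Cd209a, a gene of the other main DC subset (233 against 2.04 CPM), but no Clec9a. Before thinning, Cd209a was found in 50% of the high cells and 2.68% of the others. Ccr2 and Ctss, genes that monocytes share with DCs, were at 801 and 1434 CPM in high cells and 489 and 1637 CPM in the others, so this split was not one of all myeloid genes.

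At E16.5, cells with MHC class II transcripts also sat in HSPC1, a code for stem and progenitor cells whose leading genes were Cd209a, Shisa8, Flt3 and Hoxa9. In library 1, 18 of 33 HSPC1 cells were high, with no cell near the cut, and HSPC1 held 53.2% of the UMIs of the 6 members, more than DC1. In library 2, 45 of 165 were high and the cluster held 32.6%. High cells had little of the progenitor gene Cd34 (16.4 against 325 CPM in library 1 and 31.4 against 225 CPM in library 2) and more of Cd209a (412 against 2.14 and 97.1 against 2.76 CPM). The lysosomal protease Ctss was at 805 against 49.2 CPM and at 469 against 97.0 CPM. Flt3, a receptor of early progenitors and DCs alike, was at 112 against 139 CPM in library 1 and 47.8 against 58.8 CPM in library 2, with overlapping intervals in both. In both libraries HSPC1 thus mixed cells with and without the transcripts, and H2-Aa was at 2952 and 900 CPM over the whole cluster. The libraries differed in Mono/Mast. Cd74 was at 499 and 81.8 CPM there and H2-Aa at 143 and 18.9 CPM in libraries 1 and 2. Mono/Mast held 17.9% and 1.43% of the Cd74 UMIs of these libraries. Its top 3 cells held 37.2% and 71.9% of its UMIs of the 6 members.

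UD1 of E16.5 library 2, a code without a name, was a further place of expression outside myeloid clusters. It held 10 high cells of 76 and 3.15% of the UMIs of the 6 members, with Cd74 at 999, H2-Aa at 441, H2-Eb1 at 332 and H2-Ab1 at 272 CPM. Its high cells were rich in Il7r (2839 against 1018 CPM), the receptor for the lymphoid growth factor IL-7, while Clec9a, Cd209a, Xcr1, Itgax and Flt3 were at 0 in the whole cluster. The rest of the 9 DC markers, Zbtb46, Batf3, Naaa and Ifi205, are not covered by that statement. H2-DMa was at 25.9 and H2-DMb1 at 5.17 CPM, low beside the level of Cd74. H2-Ab1 was 38.1% [34.0-42.3] of the UMIs of both I-A chains there, below the 45.4% to 54.2% of the other high clusters.

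In B-lineage clusters, Cd74, H2-Aa, H2-Eb1, H2-DMa and Ciita were higher in adults than at E16.5, while H2-Ab1 was already present at E16.5 and its change was not called. The class pooled 28, 181, 152, 387 and 1139 cells of E16.5 library 1, library 2, E18.5, P0 and adult. Cd74 was at 0 CPM in E16.5 library 1 and 4.82 CPM in library 2, and then at 71.2 (E18.5), 7.98 (P0) and 376 CPM (adult). H2-Aa was at 3.32 and 0.877, then 16.1, 2.31 and 81.5 CPM, and H2-Eb1 at 0 and 0.877, then 10.7, 2.48 and 65.2 CPM. The adult library was far above every earlier one for all 3 genes. P0 lay below E18.5, but without the 3 cells of each library with the most member UMIs the E18.5 and P0 levels were 18.3 and 5.39 CPM for Cd74, 1.43 and 1.08 for H2-Aa and 2.00 and 1.08 for H2-Eb1, and only the Cd74 ratio had an interval apart from 1. H2-Ab1 was instead at 66.3 and 72.3, then 78.6, 77.3 and 114 CPM, a narrow range at all ages. H2-DMa was at 1.66 and 3.07, then 11.0, 14.0 and 28.3 CPM. Ciita was at 0 and 0, then 0.565, 0.532 and 9.38 CPM, and H2-DMb1 at 0 and 0.438, then 4.80, 2.13 and 4.44 CPM.

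**Figure D3:**
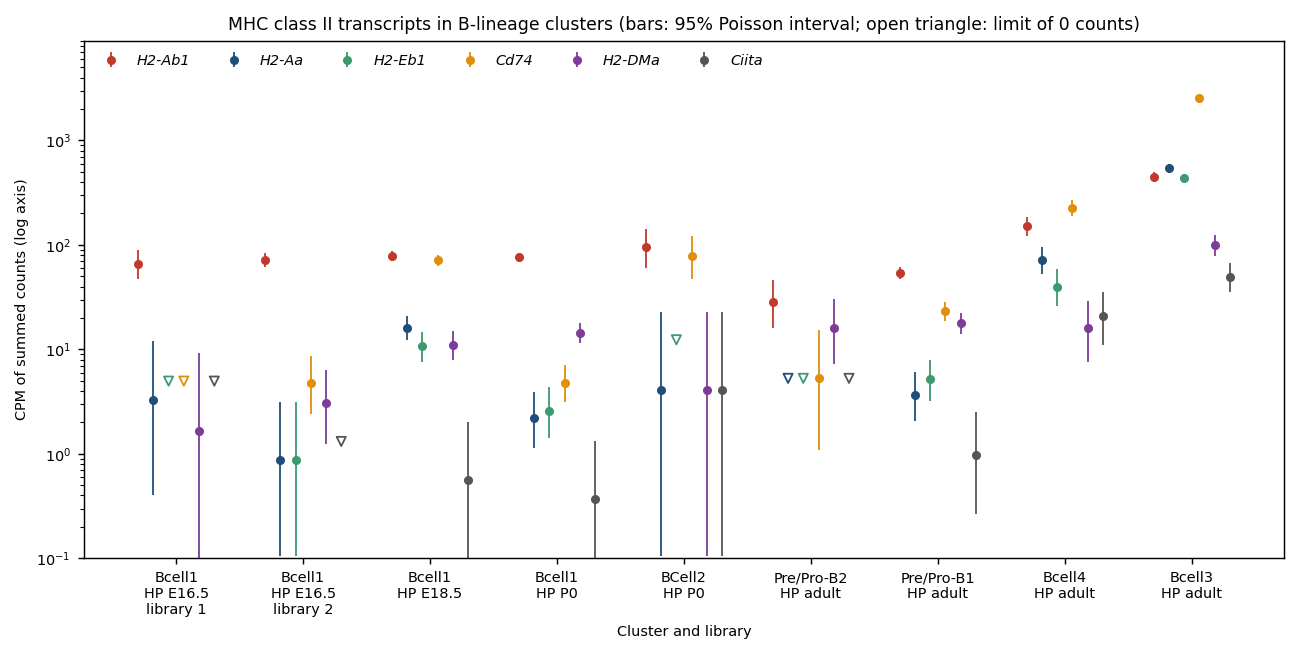
Levels (CPM on a log axis, points with exact Poisson 95% intervals) of 6 MHC class II genes in the 9 B-lineage clusters of the 5 HP libraries, with open triangles for the limit that a count of 0 allows. H2-Ab1 stays between 28.2 and 94.8 CPM in every cluster but Bcell3 and Bcell4, while Cd74, H2-Aa and H2-Eb1 rise to 2540, 540 and 434 CPM in adult Bcell3.

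Most of the adult transcripts lay in Bcell3, with 2046 of the 2286 Cd74 UMIs of the class. This cluster was led by Ms4a1 and light chain genes of mature B cells, and Cd74 was at 2540, H2-Aa at 540, H2-Ab1 at 448, H2-Eb1 at 434, H2-DMa at 99.3 and Ciita at 49.6 CPM. In Pre/Pro-B1, the largest adult cluster with 441 cells, the values were 23.3, 3.68, 54.2, 5.15, 17.9 and 0.982 CPM. In Bcell4, Cd74 was at 226, H2-Aa at 71.7, H2-Ab1 at 151 and H2-Eb1 at 39.9 CPM. Bcell3 cells were shallow, with a median of 1903 UMIs, and mature B cells bear B220, which the Lineage gate removes.

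Within Bcell3, 54 of 310 thinned cells were high and 39 lay near the cut. The high cells held less of the precursor genes Ebf1 (912 against 2269 CPM) and Vpreb3 (307 against 2102 CPM) and of Ighm (2021 against 11975 CPM), and more of the mature B-cell gene Ms4a1 (981 against 739 CPM). Per 10000 UMIs the median high cell had 0 of Vpreb3 and the median other cell 19.4. Before thinning, Ciita was found in 29.6% of high and 5.08% of other cells.

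Between ages, edgeR's quasi-likelihood test (Benjamini-Hochberg over 10770 genes, all 7 members among them) called 5 members higher in adult than in E16.5 B-lineage cells, where 4.41% of genes were called higher. The spread in this fit has 1 residual degree of freedom, from the E16.5 pair. Adult, P0 and E18.5 are 1 library each and are assumed to vary like that pair, so the SEs and p-values below hold only under that assumption, and age and library cannot be told apart. The log2 fold changes were 6.92 for Cd74 (SE 0.55, adjusted p = 2.91e-33), 6.04 for H2-Aa (SE 0.57, adjusted p = 2.52e-23), 6.73 for H2-Eb1 (SE 0.62, adjusted p = 3.8e-24) and 3.59 for H2-DMa (SE 0.52, adjusted p = 1.11e-09). Ciita was also called, with both E16.5 libraries at 0 counts. Its adult level of 9.38 [7.11-12.2] CPM lay above the limits that 0 counts allow, 4.97 CPM in library 1 and 1.32 CPM in library 2. The change of H2-Ab1 was 0.97 (SE 0.41, adjusted p = 0.164) and that of H2-DMb1 3.79 (SE 1.33, adjusted p = 0.0609). Against P0, 4 members were called higher in adults, where 1.87% of genes were, with Cd74 at 5.72 (SE 0.60, adjusted p = 1.86e-18), H2-Aa at 5.29 (SE 0.55, adjusted p = 6.1e-19), H2-Eb1 at 4.87 (SE 0.52, adjusted p = 6.92e-18) and Ciita at 4.22 (SE 1.01, adjusted p = 0.00214). DESeq2 called 3 and 2 members higher in the same contrasts, where 1.13% and 0.257% of the genes it gave an adjusted p were, with Cd74 at adjusted p = 0.101 and 1, so these calls depend on the tool for Cd74 and Ciita.

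Fewer members were called between the perinatal ages. From E16.5 to E18.5, 3 members were called higher (0.594% of genes were), Cd74 by 4.34 (SE 0.57, adjusted p = 3.67e-11), H2-Aa by 3.53 (SE 0.67, adjusted p = 0.000103) and H2-Eb1 by 3.95 (SE 0.80, adjusted p = 0.000318). However, 3 of 152 Bcell1 cells held 74.6% of the Cd74 UMIs at E18.5, and without the 3 cells of each library with the most member UMIs only Cd74 was called, with a change of 3.13 (adjusted p = 0.000701). H2-DMa was the 1 member called higher at P0 than at E16.5 (0.687% of genes were), by 2.41 (SE 0.56, adjusted p = 0.00443), and it was not called without cells whose barcode was in another library (change 2.14, adjusted p = 0.213), while without the 3 cells of each library it was (change 2.26, adjusted p = 0.0114). DESeq2 called 0 members in both contrasts, with 3 and 1 at an unadjusted p under 0.05, where edgeR had 5 and 1, and it gave no adjusted p for H2-Aa and H2-Eb1 in the first or for H2-DMa in either. By the ratio of the adult to the P0 library, 5 of the 6 members with at least 50 counts in the higher library were at least 2-fold higher (4.42% of genes under the same filter were), from 2.02-fold [1.54-2.67] for H2-DMa to 47.1-fold [35.1-64.8] for Cd74, and H2-Ab1 was 1.48-fold higher [1.31-1.67]. H2-Aa, H2-Eb1, Cd74 and Ciita passed the filter only through the adult library, with 13, 14, 45 and 3 counts at P0. H2-DMb1, with 27 adult counts, did not pass it, so the number of members partly follows from the filter. H2-DMa was below the 2-fold limit, leaving 4 members, without the 5% of cells with the most UMIs (1.94-fold), without cells under 1000 UMIs (1.94) or without shared barcodes (1.98). Against each E16.5 library, the same limit was passed by 5 members in adults (7.04% and 9.34% of genes), by 2 at E18.5, Cd74 and H2-Aa (3.13% and 4.35%), and by 1 at P0, H2-DMa (4.36% and 4.46%), and from E18.5 to P0 Cd74 and H2-Aa were lower, 0.112-fold [0.0797-0.154] and 0.143-fold [0.0719-0.265] (0.374% of genes were lower). Without the 3 cells of each library with the most member UMIs, Cd74 alone passed that limit at E18.5 against each E16.5 library and from E18.5 to P0 (0.295-fold [0.184-0.461]). When the largest cluster stood for each age, Cd74 was the only member past that limit in adult Pre/Pro-B1 against P0 Bcell1, at 4.84-fold (2.16% of genes), and 2 members passed it in Pre/Pro-B1 against Bcell1 of each E16.5 library (4.89% and 6.21%). However, 3 cells held 50.5% of the Cd74 UMIs of Pre/Pro-B1 and 3 cells 57.7% of those of P0 Bcell1. Before thinning, Cd74 was found in 5.22% and 4.29% of the cells of these 2 clusters.

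H2-Ab1 was found where its partner chain was nearly missing. In Bcell1 it made up 95.2%, 98.8% [95.7-99.9], 83.0% [78.5-86.9] and 97.2% [95.1-98.5] of the UMIs of H2-Ab1 plus H2-Aa in E16.5 libraries 1 and 2, E18.5 and P0, and 93.6% [89.7-96.4] in adult Pre/Pro-B1. In DC1, DC3, Mono1ii and Bcell3 the share was 46.7% and 50.7%, 54.2%, 52.3% and 45.4%. The H2-Ab1 UMIs of Bcell1 were spread over cells, with 4.36% in the top 3 cells at P0 and 67.2% of cells holding 1 or more before thinning, against 57.7% of the Cd74 UMIs in the top 3. The same excess of H2-Ab1 at lower levels was seen in Mast1, EryP1 and MegP1, 97.1% and 93.1% in Mast1, 84.2% in EryP1 and 86.2% in MegP1. The level of H2-Ab1 in P0 Bcell1 (76.5 [69.3-84.3] CPM) lay above that in EryP1 (35.01 [32.3-37.9] CPM) and MegP1 (34.1 [31.3-37.0] CPM), but the share of cells after thinning did not separate Bcell1 (5.83% [3.55-8.95]) from EryP1 (4.96% [3.17-7.35]).

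**Figure D4:**
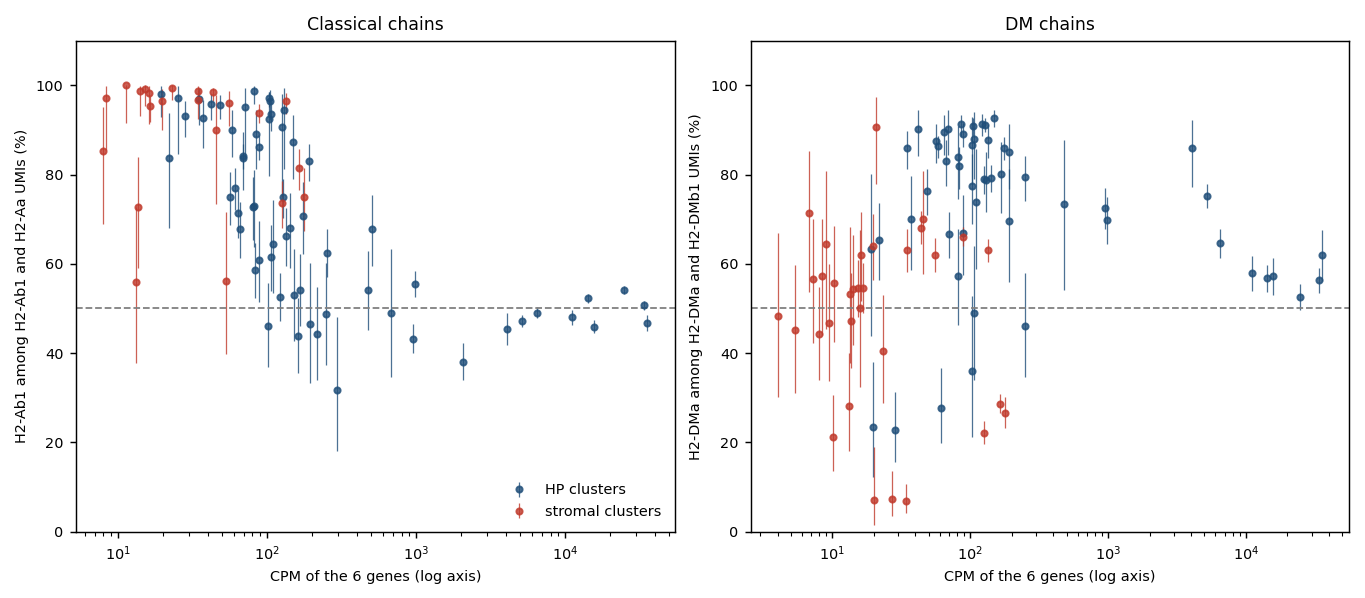
Share of H2-Ab1 in the UMIs of H2-Ab1 plus H2-Aa, and of H2-DMa in those of H2-DMa plus H2-DMb1 (percent), against the level of the 6 members (CPM, log axis) in clusters of HPs and stroma, with exact binomial 95% intervals as bars. DC, Mono6 and Bcell3 clusters lie between 45.4% and 54.2% for the I-A chains, while Bcell1 clusters lie at 83.0% or more, and the H2-DMa share is 22.7% in Mast1 and 92.7% in LymP.

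H2-DMa was widespread, at 10 CPM or more in 55 of 73 HP clusters of at least 50 cells and at 100 CPM or more in 9. Clusters led by progenitor, monocyte or plasmacytoid DC genes were among those that held it with little Cd74. Adult HSPC5, led by the stem cell genes Hlf and Mecom, had H2-DMa at 115 [107-125] CPM and Cd74 at 11.9 CPM. LymP at P0, led by Ccr9 and Cox6a2, had 111 [103-120] and 13.0 CPM, and adult Mono5, led by the plasmacytoid DC genes Siglech, Cox6a2 and Ccr9, had 82.7 [76.1-89.6] and 17.2 CPM. Adult Mono4, led by F13a1 and Ccr2, had 93.4 [85.6-102] CPM of H2-DMa and 2.09 CPM of Cd74. In Mono2 at E18.5, H2-DMa was at 122 [97.9-151] CPM with 32.7 CPM of Cd74, beside the highest level of the protease Lgmn of any cluster, 3146 CPM. Thinned cells with H2-DMa were 10.6% of HSPC5, 10.8% of LymP and 9.95% of Mono4, against 0.230% of Mast1 and 0.431% of EryP1.

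H2-DMa and H2-DMb1 were also unequal. H2-DMa was 61.9% and 56.3% of the UMIs of H2-DMa plus H2-DMb1 in DC1, 52.6% in DC3 and 57.8% in Mono6. It was 91.3% and 90.8% in HSPC2 of E18.5 and P0, 92.7% [90.6-94.5] in LymP and 86.0% in HSPC5 and Bcell3. In Mast1 it was 22.7% in both E16.5 libraries, but in Mast3 it was 48.9% at E18.5 and 57.3% at P0. H2-DMb1 has a near-identical neighbour, H2-DMb2, and reads that could belong to either may be lost or split, so low H2-DMb1 is less certain than low H2-DMa. H2-DMb2 itself was highest in Bcell3, at 84.4 [65.5-107] CPM, against 16.1 CPM of H2-DMb1. The shares above leave H2-DMb2 out, so the 86.0% of Bcell3 is not a share of all DM transcripts.

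**Figure D5:**
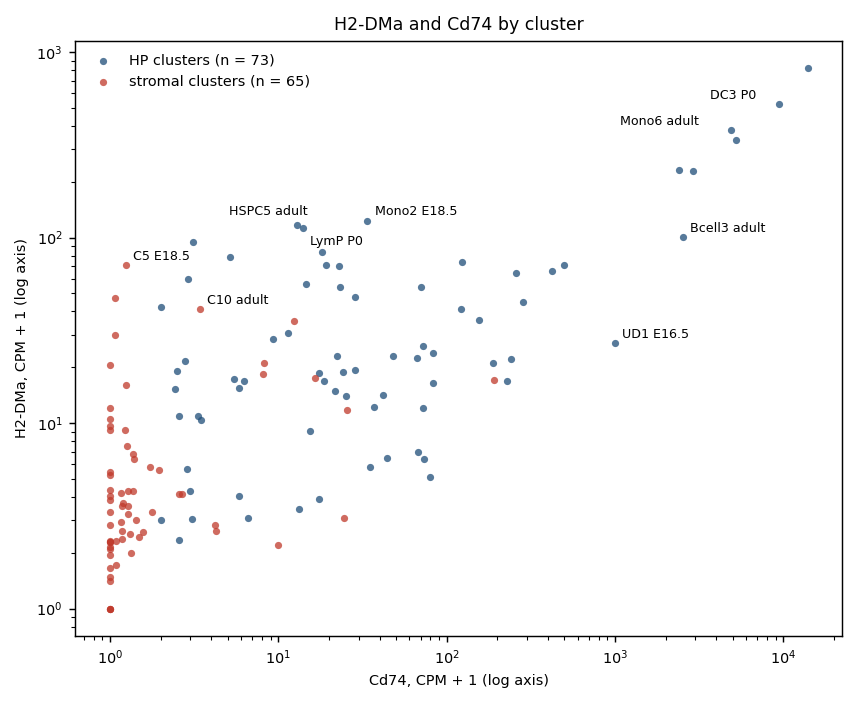
H2-DMa against Cd74 (CPM + 1, both axes log) in 73 HP and 65 stromal clusters of at least 50 cells. DC1, DC3 and Bcell3 rise together at the upper right, while HSPC5, LymP, Mono2, stromal C5 at E18.5 and P0 and adult C10 hold 40.03 to 122 CPM of H2-DMa with less than 33 CPM of Cd74.

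In stroma, H2-DMa and H2-DMb1 were highest in clusters of chondrocytes, the cells of cartilage. C5, led by Col10a1, Ihh and Panx3, had H2-DMa at 28.9 [26.2-31.8], 69.8 [65.3-74.7] and 46.3 [43.8-48.9] CPM at E16.5, E18.5 and P0 and H2-DMb1 at 17.7, 40.9 and 23.7 CPM. H2-Ab1 was at 8.40, 21.9 and 17.0 CPM, but Cd74 had only 1, 3 and 2 counts. C5 held 54.2%, 50.6% and 66.6% of all H2-DMa UMIs of its library. H2-DMa was found in 3.59%, 5.50% and 3.95% of thinned C5 cells. The leukocyte gene Ptprc had 0, 1 and 0 counts there, after that removal of blood cells. Summed B-cell markers were 135, 91.0 and 121 CPM with 4 of 8 at 0 in each, most of it Ebf1 (90 to 134 CPM), while Cd79a was at 0.840, 0.322 and 0.819 CPM. The macrophage markers summed to 10.8, 13.5 and 20.9 CPM with C1qa at 0, and the DC markers to 65.1, 63.0 and 43.3 CPM with 5, 6 and 5 of 9 at 0 and no Flt3.

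Adult C9, C10 (led by Matn1, Panx3 and Ihh) and C11 (led by cell cycle genes) carried H2-DMa and H2-DMb1 in the other proportion. H2-DMb1 was at 70.8 [66.0-75.7], 99.6 [94.4-105] and 95.5 [87.2-104] CPM and H2-DMa at 20.1, 40.03 and 34.6 CPM, so that H2-DMa was 22.1% [19.7-24.8], 28.7% [26.7-30.7] and 26.6% [23.2-30.1] of both chains, against 62.0%, 63.1% and 66.1% in the younger C5. Cd74 was at 7.16, 2.40 and 11.3 CPM and Ptprc had 0 counts in all 3. Macrophage markers summed to 34.96, 25.4 and 38.1 CPM with 5, 4 and 5 of 8 at 0, and DC markers to 76.5, 94.5 and 94.0 CPM with 4, 4 and 5 of 9 at 0 and Flt3 at no more than 0.0727 CPM. H2-DMb1 was also above H2-DMa in every other adult stromal cluster but P1, so this order was not particular to adult cartilage. In F9, Osteo and CARs the values were 20.2 against 1.51, 20.1 against 1.60 and 13.3 against 1.00 CPM. Age and library are the same thing in the comparison of adult clusters with the younger C5 and cannot be told apart. The highest Cd74 in stroma, 189 CPM in UD3 at P0 (pigment cell genes Dct, Tyrp1 and Mlana), came with Ptprc at 3 counts and 46.8% of the Cd74 UMIs in 3 of 129 cells.

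Ciita was at 10 CPM or more in 10 of 73 HP clusters and 0 of 65 stromal clusters. Over the 138 clusters of at least 50 cells, Pearson's r of log2(CPM + 1) with Ciita was 0.826 for H2-Aa, 0.827 for H2-Eb1, 0.767 for H2-Ab1, 0.766 for Cd74, 0.593 for H2-DMa and 0.556 for H2-DMb1. Spearman's rho was lower, at 0.509, 0.438, 0.465, 0.468, 0.439 and 0.27 in the same order. Among the members themselves r was highest between H2-Aa and H2-Eb1, at 0.97. Over the 65 stromal clusters alone, r with Ciita was between 0.0125 for H2-Eb1 and 0.119 for Cd74. These are descriptions, since clusters share libraries and depth. Ciita in stroma was at 0.0718 to 0.111 CPM per library. Among the clusters high in H2-DM, it was highest in adult C9, at 0.426 [0.138-0.995] CPM from 5 UMIs, and at 0 in C5 of E16.5 and adult C11.

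Of 19 other genes of the class II pathway in the matrix, edgeR called 0 of the 18 tested at E18.5 or at P0 against E16.5 in B-lineage cells, with 1 at an unadjusted p under 0.05 in each contrast and 0 by DESeq2. In adults against E16.5, 3 were higher (4.41% of genes were) and 1 lower (1.89%). H2-DMb2 was higher by 4.39 on the log2 scale (edgeR adjusted p = 3.32e-05), H2-Ob, a chain of the DM inhibitor H2-DO, by 1.81 (adjusted p = 0.000504) and March1, the ubiquitin ligase that removes class II from the surface, by 7.68 (adjusted p = 0.00454). The protease Ctsl fell by 1.99 (adjusted p = 0.000611). Against P0, H2-DMb2 was higher by 2.43 (edgeR adjusted p = 0.0115) and Ctsl fell by 1.52 (edgeR adjusted p = 0.0471), where 1.87% and 0.947% of genes were called. DESeq2 called 0 of 19 in either adult contrast, with 4 at an unadjusted p under 0.05 against E16.5 and 0 against P0. Without cells whose barcode was in another library, H2-Ob (edgeR adjusted p = 0.0558) and March1 (0.0721) were not called against E16.5, nor was Ctsl against P0 (0.278), while H2-DMb2 was called in both contrasts (0.00132 and 0.0210). The fall of Ctsl against P0 was also not called without the filter on counts, or without the 5% of cells with the most UMIs. Ctss, the protease that trims the invariant chain, was at 466 and 450 CPM in DC1, 1595 in Mono1i, 492 in DC3, 246 in Mono6 and 123 in Bcell3. The highest Ctss level, 2787 CPM, was in Mono2 at E18.5, where H2-Aa was at 1.42 CPM. The costimulator Cd86 was at 119 and 116 CPM in DC1, 148 in Mono1ii, 92.1 in DC3, 38.5 in Mono6 and 11.2 in Bcell3. H2-Ob was at 107 CPM in Bcell3 and 120 CPM in Pre/Pro-B2, its highest levels.

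In the monocyte and DC clusters as a class, the adult level was below the P0 level. H2-Aa was at 1177, 978 and 143 CPM at E18.5, P0 and adult, H2-Ab1 at 1231, 1168 and 138 CPM, H2-Eb1 at 877, 769 and 106 CPM and Cd74 at 2395, 1963 and 344 CPM. E18.5 and P0 were near each other and the adult library was apart. H2-DMa moved less, at 186, 151 and 107 CPM. Adult to P0 ratios were 0.147 [0.139-0.154] for H2-Aa, 0.118 [0.112-0.124] for H2-Ab1, 0.138 [0.130-0.146] for H2-Eb1, 0.376 [0.335-0.421] for H2-DMb1 and 0.175 [0.169-0.181] for Cd74, so 5 of 7 members were at least 2-fold lower, where 14.8% of genes were. H2-DMa (0.712) and Ciita (0.674) were within 2-fold. From E18.5 to P0, Ciita was the 1 member at least 2-fold lower, at 0.371 [0.287-0.477], where 5.35% of genes were. This class was not tested, because E16.5 library 1 held 9 of its cells, and there was 1 library at each of the later ages. The class left out the code Mono/Mast of E16.5, with 161 and 142 cells in libraries 1 and 2, so at that age it was DC1 alone. Different clusters were the largest of the class (Mono1i with 191 of 532 cells at E18.5, Mono1 with 225 of 433 at P0, Mono4 with 402 of 933 in adults). Against E16.5 library 2, whose class was DC1 alone, all 7 members were at least 2-fold lower at E18.5, P0 and in adults. Under the same limit, 2.42%, 2.79% and 5.41% of genes were lower. The later classes also held clusters low in the members. H2-Aa was at 1.42 and 1.12 CPM in Mono2 of E18.5 and P0 and 0.524 CPM in adult Mono4. Make-up of the class and age therefore cannot be told apart in this comparison. With the largest clusters alone, all 7 members were at least 2-fold lower at P0 than at E18.5, where 6.50% of genes were.

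The genes whose pattern over the 138 clusters was most like the mean of the 6 members were Kmo (r = 0.81), Irf5 and Ctss (0.80), Ms4a4c (0.79), Rnase6 (0.78), Plbd1 (0.77), Pkib and Aif1 (0.76), and Bcl2a1b and Bcl2a1d (0.75), out of 16155 genes with at least 200 counts. The contrast of HPs with stroma enters these values. Over the 73 HP clusters alone, Ifi205 (0.82), Batf3 (0.80) and Shtn1 (0.79) came first, and 1 of the 10 genes, Plbd1, was in both lists. The antibody panel held none against class II. Among the antibodies that were counted, Ly6AE (Sca-1) had a median of 65 counts in the 91 high cells of P0 against 3 in the other cells, 27 against 3 at E18.5, 6 against 2 in adults, 7 against 4 in E16.5 library 1 and 1 against 1 in E16.5 library 2. Total antibody counts were also higher in high cells in 4 of these 5 libraries (186 against 128 at P0), and E16.5 library 2 had the reverse (42 against 76), and the part of the total in the Ly6AE difference was not tested.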

How the data were processed

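Raw UMI counts per gene and cell, deposited by the authors with a cluster code for each cell, were used as counts. The submitters' processing notes name Cell Ranger 3.1.0, R 4.0, Seurat 3.1.5 and the build mm10, and the authors filtered cells and genes before deposit, so removed cells cannot be seen here. Their methods also say that contaminating blood cells were removed from the stromal objects. Deposited antibody counts of the same cells were used as counts too. Libraries held 13974733 to 194892476 UMIs.

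Counts were summed over the cells of a cluster in 1 library and divided by all UMIs of the cluster (CPM). Cells were thinned to 1000 UMIs for shares of cells, leaving out shallower ones, except where a share is said to be before thinning. No doublet caller was run, and leaving out the 5% of cells with the most UMIs stood as an alternative. B-lineage sums were tested with edgeR 4.0.16 in R 4.3.3 (quasi-likelihood, TMM, filterByExpr, adjusted p under 0.05), with DESeq2 1.42.0 as an alternative. The edgeR SEs were not given by the fit. Each was computed back as the size of the log2 fold change divided by the square root of its F statistic. On simulated data for adult against E16.5 B cells (10616 genes), 96 of 100 genes changed 8-fold and 98 of 100 changed 64-fold were recovered, with 15 false calls of 10416. All simulated libraries shared 1 mean profile, apart from the changed genes, and the spread of the E16.5 pair. The changed genes were drawn from those above a minimum expected adult count. The simulation therefore cannot show whether the lone libraries vary like that pair. Nothing in the labels says that libraries of 1 age came from separate mice, so p-values measure the spread between libraries, which may be technical. HSPC and mast classes were not compared, because 3 and 2 of their clusters were led by markers of another class. The monocyte and DC class, which left out the code Mono/Mast, was not tested, because E16.5 library 1 held 9 of its cells. Values were computed with Python 3.11.15, numpy 2.4.6 and scipy 1.17.1.

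The named genes were the 7 members, the other genes of the class II pathway on a list of 21 names (19 in the matrix), the 10 genes most like the members over clusters, and markers of cell types. Members and lists were chosen with earlier results of these data known. Cells with and without the transcripts were set apart by the members' own counts, so their other genes are described and not tested.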

Additional observations from a re-analysis of the deposited data

How the results depend on the processing

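Of the values that answer a comparison, 128 stayed within their limits under the alternatives and 51 moved. A change of direction was not scored for these values. Other values kept their side of the threshold in 152 cases and lost it in 8. Cases without an adjusted p, such as H2-Aa and H2-Eb1 at E18.5 by DESeq2, were left out of that count. The cause was not tested except where the setting itself changes what is counted.

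As a mean over cells, the 6 members stood at 41079 and 36788 CPM in DC1 of E16.5 libraries 1 and 2, 14414 in Mono1ii, 29217 in DC3 and 11752 in Mono6. Without mitochondrial, ribosomal protein and Gm42418 UMIs, which shrinks the denominator, they stood at 50482, 46790, 19042, 34683 and 17601, and at 7097 in Bcell3. Without the 5% of cells with the most UMIs, DC1 of library 2 was at 35413 and DC3 at 25543 CPM, and DC1 of library 2, Mono1ii, DC3 and Mono6 held 55.6%, 53.3%, 69.3% and 52.3% of their library's UMIs of the members. Leaving out either E16.5 library gave 34113 to 35745 CPM in DC1. Leaving out cells with a shared barcode, chosen after seeing the data, gave 47580 CPM in DC1 of library 1 and shares of 27.0% and 54.0% in DC1, 54.2% in Mono1ii and 67.8% in DC3.

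H2-Ab1 was found in 55.2% of Bcell1 and 15.7% of Mast1 cells of library 2 and 37.2% of Bcell3 cells without thinning, and in 15.6%, 2.88% and 42.5% at 2000 UMIs. At that depth, 4 or more members were found in 100% of DC1 cells of library 2, 97.9% of DC3 and 66.4% of Mono6.

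In B cells, genes called at E18.5, P0 and adult against E16.5 and adult against P0 were 38, 56, 360 and 166 without shared barcodes and 8, 11, 148 and 34 with DESeq2. Members called were 0, 0, 3 and 2 with DESeq2, 0 at P0 without shared barcodes and 1 at E18.5 without the 3 cells with the most member UMIs, a setting also chosen after seeing the data. With the largest clusters alone, 1 member was 2-fold higher in adult than P0 B cells and 7 were lower in P0 than E18.5 monocyte and DC clusters, and without the 3 cells 1 member was lower in P0 than E18.5 B cells. Of the 10 genes most like the members, 2 were shared by Spearman and 1 over HP clusters.

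No paired analysis was possible because the ages compared share fewer than 2 replicate numbers. Leaving out an E16.5 library left no residual degrees of freedom, so no test was made. Precision is limited by rare clusters and by 1 library at each age but E16.5 in HPs.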
